A study of Homo sapiens with 6 samples.

Results

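The nuclear-encoded oxidative phosphorylation genes were taken by symbol from a deposited table of RNA-seq read counts for 58735 genes in cells labelled SW1990, a human pancreatic ductal adenocarcinoma cell line. Protein-coding genes whose symbols begin with NDUF, UQCR, COX followed by 4 to 8, or ATP5, together with the 4 SDH genes, gave 99 members. Cells given 5 µM EPZ-5676 (EPZ), an inhibitor of the histone methyltransferase DOT1L, made up 3 libraries, and control cells (NC) made up the other 3. For NC the sample annotation reads untreated, whereas the treatment protocol describes an equal volume of DMSO, the solvent. All 6 libraries were polyadenylated RNA from this single line, the length of treatment was not stated in the labels, and nothing stated that libraries of a group came from separate cultures. The p-values below therefore measure only the spread between these libraries, which may be technical.

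Oxidative phosphorylation takes electrons from NADH at complex I and from succinate at complex II, passes them through complex III and cytochrome c to oxygen at complex IV, and uses the proton gradient so made to drive ATP synthesis at complex V. Core subunits carry the flavins, iron-sulfur clusters and haems or the catalytic sites, accessory subunits surround and stabilise them, and assembly factors are absent from the finished enzyme. Several core subunits of complexes I, III, IV and V are encoded by mitochondrial DNA, so each of these complexes is built from transcripts of both genomes, whereas complex II is wholly nuclear-encoded. In tumour cells the pathway supplies ATP and also regenerates the oxidised cofactors needed for biosynthesis.

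Library totals ranged from 33970420 to 39749648 reads. DOT1L itself had 102, 79.7 and 99.1 CPM (read counts scaled to library size with trimmed mean of M values factors) in EPZ libraries and 69.4, 101 and 94.0 CPM in NC libraries, which overlapped. The log2 fold change, EPZ over NC, was 0.09 (edgeR adjusted p = 0.636), and -0.30 after a correction for GC content and length (adjusted p = 0.0373). An inhibitor of the enzyme need not alter its transcript. Of 7 ductal epithelial markers, the keratin KRT8 had 3095 to 3974 CPM in EPZ and 2418 to 2832 CPM in NC libraries. KRT7 and KRT18 had at least 1142 CPM in every library, KRT19 stayed below 1 CPM and CDH1, the epithelial cadherin, was at 0 throughout. The epithelial adhesion molecule EPCAM had 1.22, 0.656 and 1.37 CPM in EPZ and 2.59, 1.43 and 1.66 CPM in NC libraries, and did not pass (edgeR adjusted p = 0.123). These 3 markers were thus at or near 0 in libraries labelled as a ductal adenocarcinoma line, and the identity of the line was not tested further. The 7 summed to 6549 to 8341 CPM in EPZ and 5365 to 6168 CPM in NC libraries. All 3 acinar markers were at 0, and the leukocyte marker PTPRC had 4.38 CPM in NC replicate 2 and at most 0.228 CPM in any other library. Summed fibroblast markers reached 84.6 to 90.5 CPM in EPZ and 76.01 to 87.0 CPM in NC libraries. Within that sum COL1A1 was higher in EPZ (log2 fold change 0.48, edgeR adjusted p = 0.00676), DCN (-0.46, adjusted p = 0.0164) and LUM (-1.04, adjusted p = 0.0105) were lower, each with groups that did not overlap, and COL1A2 and PDGFRA were at or near 0. The part of these other cell types' markers in the results was not tested, and in such bulk libraries fewer cells of a type and less RNA per cell cannot be told apart. Libraries differed within groups along transcript GC content. Among all tested genes with transcripts under 45% GC, the median of centred log2(CPM + 0.5) was -0.34, -0.15 and -0.16 in EPZ libraries and 0.35, 0.07 and 0.25 in NC libraries. EPZ replicate 1 and NC replicate 1 lay farthest apart.

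Of the 99 members, 91 had enough reads to be tested. The other 8 were COX4I2, COX6A2, COX7A1, COX7B2, COX8C, ATP5MGL and the read-through genes NDUFC2-KCTD14 and ATP5MF-PTCD1, each at or near 0 in all 6 libraries. With edgeR's quasi-likelihood test and an adjusted p (Benjamini-Hochberg, over all genes) of less than 0.05, 13 members were higher in EPZ and 11 were lower. These were 14.3% and 12.1% of the tested members, beside 15.0% and 18.7% of all 15496 tested genes. The median log2 fold change was 0.02 over the members and -0.05 over all tested genes, and the members' calls went both ways. Other scalings gave 18 higher and 10 lower with relative log expression and 17 and 10 with upper-quartile scaling. DESeq2, which differs in its model and test as well as its scaling, gave 20 and 10. In the same order, 2624, 2476 and 2778 of all tested genes were higher and 2637, 2761 and 2711 were lower. A correction for the GC content and length of transcripts ended 19 of the 24 calls, and the values after it are given with the members below. All EPZ libraries lay above all NC libraries for 25 members (27.5%, beside 21.8% of all tested genes) and below them for 15 (16.5%, beside 24.2%). The count of higher members also depended on single libraries: it was 6 without EPZ replicate 1, 7 without NC replicate 3 and 21 without NC replicate 2. The count of all tested genes higher moved the same way, from 2326 with every library to 1350, 1592 and 2780 in these fits.

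**Figure D1:**
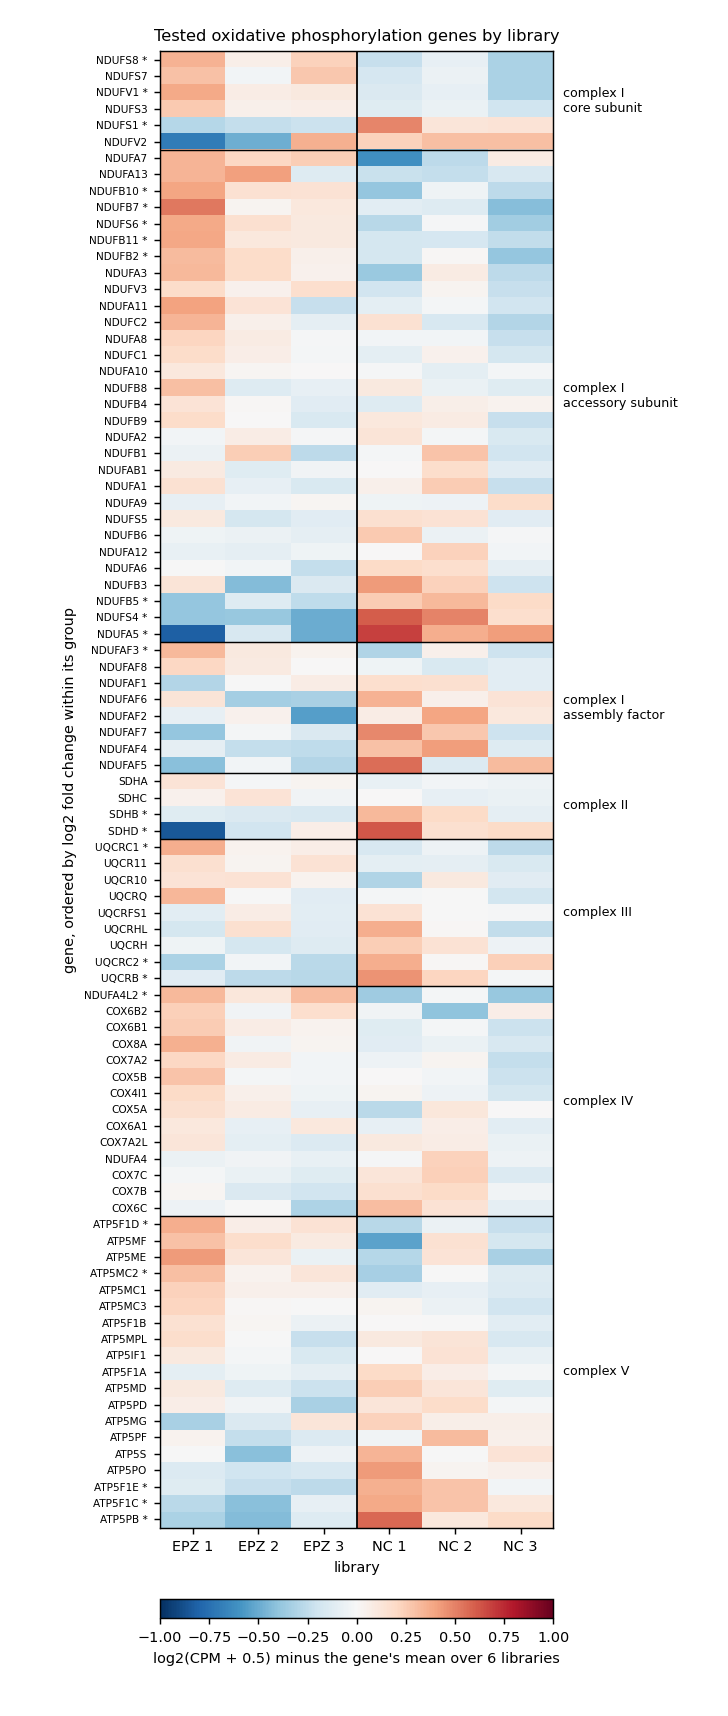
Heat map of tested members in the 6 libraries, EPZ libraries at the left and NC libraries at the right; colour is log2(CPM + 0.5) minus the gene's mean over the libraries, limited to -1 and 1, and genes with an adjusted p under 0.05 carry an asterisk. Within every complex some members are redder in EPZ and others bluer, with EPZ replicate 1 and NC replicate 1 often the most strongly coloured.

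Among the 7 nuclear-encoded core subunits of complex I, 3 were higher, 1 was lower and 3 did not pass, with a group median log2 fold change of 0.37. NDUFS8, an iron-sulfur subunit, had 237, 194 and 219 CPM in EPZ and 159, 176 and 150 CPM in NC libraries. NDUFV1, the subunit that binds FMN and oxidises NADH, had 307, 249 and 253 CPM in EPZ and 214, 223 and 190 CPM in NC libraries. In both, every EPZ library lay above every NC library, with log2 fold changes of 0.42 (adjusted p = 0.00447) and 0.37 (adjusted p = 0.0119) in edgeR's test. NDUFS1, the largest core subunit and a carrier of iron-sulfur clusters, went the other way, with 106, 109 and 111 CPM in EPZ and 182, 141 and 142 CPM in NC libraries. Its log2 fold change was -0.51 (SE 0.11, adjusted p = 0.00174), so subunits of the same NADH-oxidising arm were called in opposite directions. The call of NDUFV1 was lost without EPZ replicate 1 (adjusted p = 0.0762 in edgeR) and without NC replicate 3 (adjusted p = 0.0720). After GC and length correction none of these 3 was called, and the opposite directions were gone as calls: NDUFS8 was at 0.13 (edgeR adjusted p = 0.318), NDUFV1 at 0.03 (adjusted p = 0.875) and NDUFS1 at -0.05 (adjusted p = 0.821).

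Of 31 accessory subunits of complex I, 30 were tested, 5 were higher and 3 were lower, and the group median was 0.05. The largest difference among called members was in NDUFA5 (chr7:123536997-123558255, minus strand, GRCh38), a subunit of the peripheral arm, which had 6.24, 10.1 and 7.91 CPM in EPZ libraries and 18.6, 14.8 and 15.4 CPM in NC libraries. Its log2 fold change was -1.01 (SE 0.19, adjusted p = 0.00070 in edgeR), on 194 to 356 reads per library in EPZ and 517 to 741 in NC. NDUFS4 (chr5:53560633-53683340, plus strand), a peripheral-arm subunit whose loss causes Leigh syndrome, had 15.4, 15.5 and 14.2 CPM in EPZ and 31.1, 28.8 and 22.9 CPM in NC libraries. The log2 fold change was -0.88 (SE 0.15, adjusted p = 0.00036), and the EPZ libraries were close to each other while the NC libraries spread. NDUFB5, of the membrane arm, fell by 0.51 on the log2 scale (adjusted p = 0.00171 in edgeR's test). On the higher side, the zinc-binding subunit NDUFS6 (chr5:1801400-1816605, plus strand) had 288, 248 and 237 CPM in EPZ and 183, 220 and 174 CPM in NC libraries, a difference of 0.42 on the log2 scale (SE 0.11, edgeR adjusted p = 0.00614). The membrane-arm subunits NDUFB10, NDUFB7, NDUFB11 and NDUFB2 rose by 0.46, 0.45, 0.40 and 0.37 on the log2 scale, with adjusted p between 0.00362 and 0.0303 in edgeR. NDUFB7 had the highest TPM (a level that accounts for gene length) of the group, at 1415 ± 175 in EPZ and 1134 ± 119 in NC libraries (SD, n = 3 each). Its call was lost without EPZ replicate 1 (adjusted p = 0.0748 in edgeR) and without NC replicate 3 (adjusted p = 0.0635). The call of NDUFB2 was lost on leaving out any one of 4 libraries, EPZ replicates 1 and 2 and NC replicates 1 and 3 (adjusted p = 0.0568 to 0.163). GC and length correction left NDUFS4, NDUFS6 and NDUFB2 called, but not NDUFA5 (-0.45, edgeR adjusted p = 0.0609), NDUFB5 (-0.01, adjusted p = 0.955), NDUFB10 (0.17, adjusted p = 0.141), NDUFB7 (0.02, adjusted p = 0.922) or NDUFB11 (0.06, adjusted p = 0.707).

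The 8 complex I assembly factors named NDUFAF had a median log2 fold change of -0.37, the lowest of the groups, with 6 of the 8 values negative, yet none passed as lower. After GC and length correction the group median was -0.07. NDUFAF3, an early assembly factor, was the only one called, at 109, 93.0 and 89.4 CPM in EPZ and 70.5, 90.2 and 75.2 CPM in NC libraries. The groups overlapped, and the log2 fold change was 0.31 (SE 0.12, edgeR adjusted p = 0.0439). The call was lost on leaving out any library except NC replicate 2, with adjusted p of 0.0541 to 0.216, and with GC and length correction the value was -0.12 (edgeR adjusted p = 0.398). Apart from NDUFAF3 and NDUFAF8, all assembly factors were below 30 CPM in every library.

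The 4 subunits of complex II, succinate dehydrogenase, gave 2 lower and none higher, with 1 lower gene in the catalytic pair and 1 among the membrane anchors. SDHA, the flavoprotein that oxidises succinate, had 730, 660 and 679 CPM in EPZ libraries and 630, 651 and 641 CPM in NC libraries, with no call (log2 fold change 0.11, adjusted p = 0.426 in edgeR) although the groups did not overlap. SDHB, the iron-sulfur subunit that passes on the electrons, had 87.1, 86.0 and 84.9 CPM in EPZ and 119, 108 and 89.4 CPM in NC libraries. The log2 fold change of SDHB was -0.30 (SE 0.11, adjusted p = 0.0425), and the call was lost on leaving out any one library except NC replicate 3 (adjusted p = 0.0832 to 0.210). It was also lost with relative log expression (edgeR adjusted p = 0.0879) or upper-quartile scaling (adjusted p = 0.0529), in DESeq2 (adjusted p = 0.0752) and after GC and length correction (-0.18, adjusted p = 0.207). SDHC, a haem-binding membrane anchor, had 132, 140 and 125 CPM in EPZ and 128, 121 and 122 CPM in NC libraries, which overlapped. SDHD, the other anchor, had 9.56, 15.4 and 18.5 CPM in EPZ and 27.3, 19.7 and 20.3 CPM in NC libraries. It was lower by edgeR's test (log2 fold change -0.63, SE 0.20, adjusted p = 0.0185), but not without EPZ replicate 1 (adjusted p = 0.119) or NC replicate 1 (adjusted p = 0.135), and not after GC and length correction (-0.14, adjusted p = 0.644). An annotated gene on the same strand shares 47.7% of the SDHD coding bases, so its count is uncertain.

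In complex III, 9 genes were tested, 1 was higher and 2 were lower. The higher one was UQCRC1, a core protein of the matrix side, with 1386, 1102 and 1126 CPM in EPZ and 959, 1039 and 898 CPM in NC libraries. Its partner core protein UQCRC2 had 75.7, 93.0 and 78.2 CPM in EPZ and 122, 95.2 and 112 CPM in NC libraries. The log2 fold changes were 0.32 (SE 0.11, edgeR adjusted p = 0.0287) for UQCRC1 and -0.41 (SE 0.11, adjusted p = 0.00869) for UQCRC2, so the paired core proteins were called in opposite directions. UQCRB, a small subunit that contributes to ubiquinone binding, had 70.9, 64.0 and 63.4 CPM in EPZ and 105, 89.4 and 75.7 CPM in NC libraries, a difference of -0.45 on the log2 scale (SE 0.12, adjusted p = 0.00671 in edgeR). UQCRC1 did not pass without EPZ replicate 1, NC replicate 1 or NC replicate 3 (adjusted p = 0.0646 to 0.147). GC and length correction ended all 3 calls, with UQCRC1 at -0.02 (edgeR adjusted p = 0.928), UQCRC2 at -0.16 (adjusted p = 0.261) and UQCRB at 0.10 (adjusted p = 0.703).

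Complex IV, cytochrome c oxidase, had 1 call among 14 tested members, in the first direction. It was NDUFA4L2, a paralogue of the complex IV subunit NDUFA4 and a known target of hypoxia-inducible factor, with 76.5, 66.1 and 75.5 CPM in EPZ and 47.6, 60.1 and 46.7 CPM in NC libraries. No EPZ library overlapped an NC library, and the log2 fold change was 0.50 (SE 0.12, edgeR adjusted p = 0.00337), against 0.08 after GC and length correction (adjusted p = 0.614). NDUFA4 itself had 128, 130 and 127 CPM in EPZ and 132, 157 and 129 CPM in NC libraries, which overlapped. The tissue isoforms differed widely in level. COX4I1 had 445 ± 14.4 TPM in EPZ and 443 ± 31.8 TPM in NC libraries, while COX4I2, the lung and hypoxia isoform, was at 0 in all 6. COX6A1 and COX7A2 stood at 166 ± 12.04 and 273 ± 10.6 TPM in EPZ and at 170 ± 3.43 and 264 ± 16.4 TPM in NC libraries (SD, n = 3 each). Their heart and muscle counterparts COX6A2 and COX7A1 had at most 0.0536 and 0.143 CPM in any library, and the testis isoform COX8C at most 0.0268 CPM. COX6B1, at 554 ± 10.7 TPM in EPZ and 511 ± 13.7 TPM in NC libraries, exceeded the testis isoform COX6B2, at 2.5 ± 0.199 TPM in EPZ and 2.26 ± 0.528 TPM in NC libraries. All coding bases of COX6B2 (100%) are shared with another annotated gene on the same strand, so its level, and the gap to COX6B1, are uncertain. By TPM the highest member was COX5B, a zinc-binding subunit, at 623 ± 36.3 TPM in EPZ and 609 ± 41.7 TPM in NC libraries. In CPM COX4I1 stood above it, with means of 726 in EPZ and 662 in NC libraries, beside 306 and 274 for COX5B. TPM divided COX4I1 by 4792 bases and COX5B by 1441, whereas their principal annotated transcripts have 708 and 712 bases. The rank of COX5B thus depends on the length used. COX8A (481 ± 40.4 TPM in EPZ, 446 ± 8.23 TPM in NC) and COX7A2L, which helps join complexes III and IV into supercomplexes (188 ± 6.16 TPM in EPZ, 216 ± 11.6 TPM in NC), also did not pass.

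Complex V, ATP synthase, had 19 tested members, with 2 higher and 3 lower. In the catalytic F1 head the beta subunit ATP5F1B had the highest mean TPM of all 99 members over the 6 libraries, at 1409 ± 38.7 TPM in EPZ and 1462 ± 59.99 TPM in NC libraries (SD, n = 3 each), and did not pass. In EPZ libraries alone its TPM was level with that of NDUFB7, and such ranks depend on the gene length used. The gamma subunit ATP5F1C, the rotating shaft, had 77.2, 69.7 and 88.2 CPM in EPZ and 122, 114 and 101 CPM in NC libraries. ATP5F1E, the epsilon subunit at its foot, had 119, 110 and 107 CPM in EPZ and 165, 158 and 127 CPM in NC libraries. The neighbouring delta subunit ATP5F1D had 341, 278 and 294 CPM in EPZ and 219, 255 and 226 CPM in NC libraries. The 3 subunits of this central stalk thus separated the groups in opposite directions, with log2 fold changes of -0.51 (adjusted p = 0.00187) for ATP5F1C, -0.42 (adjusted p = 0.00603) for ATP5F1E and 0.38 (adjusted p = 0.00871) for ATP5F1D in edgeR's test. ATP5PB, the b subunit of the peripheral stalk, had 85.6, 78.7 and 97.5 CPM in EPZ and 159, 115 and 122 CPM in NC libraries, the largest fall among called complex V members (log2 fold change -0.60, SE 0.12, edgeR adjusted p = 0.00120). ATP5IF1, which blocks ATP hydrolysis when respiration stops, had 112, 103 and 93.9 CPM in EPZ and 105, 115 and 98.9 CPM in NC libraries, which overlapped. The call of ATP5F1D was lost without EPZ replicate 1 (adjusted p = 0.0520 in edgeR). After GC and length correction no call of the central stalk held and a pair of signs turned, with ATP5F1C at -0.13 (edgeR adjusted p = 0.418), ATP5F1E at 0.12 (adjusted p = 0.610) and ATP5F1D at -0.04 (adjusted p = 0.797), and ATP5PB was at -0.20 (adjusted p = 0.174).

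**Figure D2:**
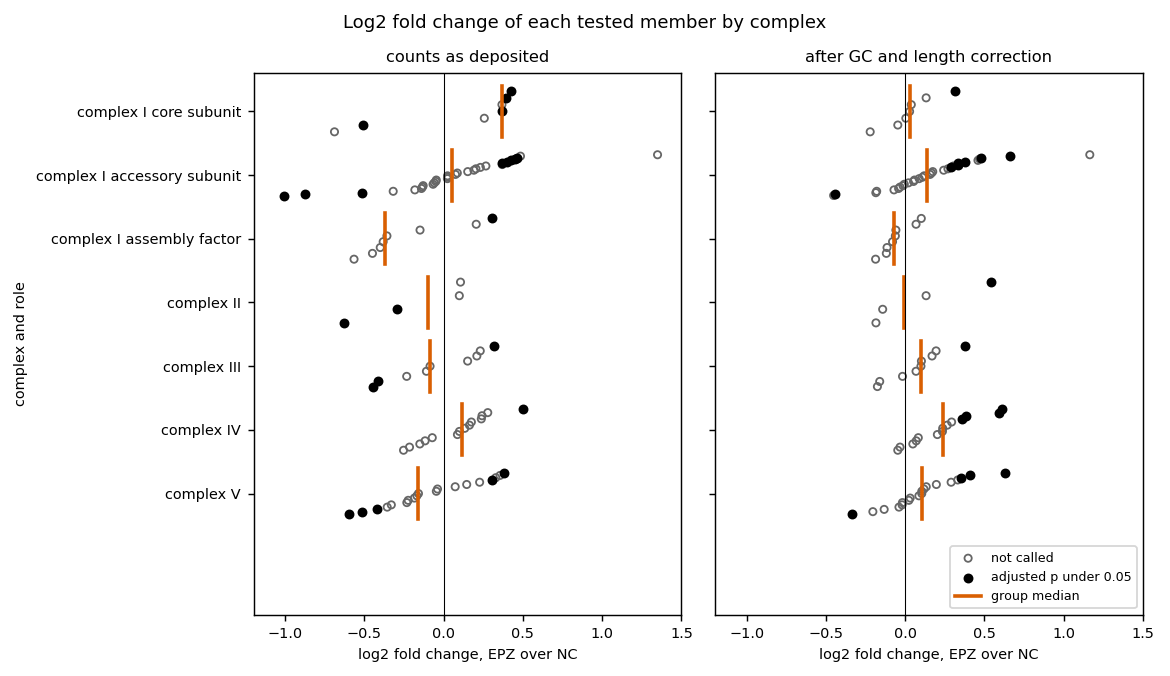
Log2 fold change, EPZ over NC, of each of the 91 tested members by complex and role, from the counts as deposited (left) and after correction for GC content and transcript length (right); filled points have an adjusted p under 0.05 and orange lines are group medians. The 7 core subunits of complex I shift from a median of 0.37 to 0.03 with the correction, and complex IV from 0.12 to 0.24.

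The membrane ring of complex V is made of subunit c, which 3 genes on chromosomes 17, 12 and 2 (ATP5MC1, ATP5MC2 and ATP5MC3) encode as the same mature protein. The last 75 codons and the stop codon of each gene are shown because they translate identically while the bases differ; capitals mark the 53 of 228 bases not shared by all 3 genes, of which 47 are at the third position of a codon.
ATP5MC1: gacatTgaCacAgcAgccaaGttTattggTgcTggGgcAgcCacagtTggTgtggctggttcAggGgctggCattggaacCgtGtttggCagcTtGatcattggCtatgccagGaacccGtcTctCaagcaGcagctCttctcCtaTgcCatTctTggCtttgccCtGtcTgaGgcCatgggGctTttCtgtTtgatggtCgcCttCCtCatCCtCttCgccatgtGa
ATP5MC2: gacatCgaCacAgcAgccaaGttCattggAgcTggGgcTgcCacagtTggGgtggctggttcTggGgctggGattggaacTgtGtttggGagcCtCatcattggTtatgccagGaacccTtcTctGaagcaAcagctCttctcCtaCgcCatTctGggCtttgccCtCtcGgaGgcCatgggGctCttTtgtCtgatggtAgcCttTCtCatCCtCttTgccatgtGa
ATP5MC3: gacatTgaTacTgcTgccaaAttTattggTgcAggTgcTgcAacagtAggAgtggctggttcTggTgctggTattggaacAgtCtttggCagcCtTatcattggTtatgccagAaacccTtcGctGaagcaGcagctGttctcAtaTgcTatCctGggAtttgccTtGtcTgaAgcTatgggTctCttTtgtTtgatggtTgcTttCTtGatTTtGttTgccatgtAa

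ATP5MC1 and ATP5MC2 differ at 25 of these bases and each differs from ATP5MC3 at 43. GC content of the stretch was 54.4% in ATP5MC1, 54.8% in ATP5MC2 and 45.2% in ATP5MC3. ATP5MC2 had 451, 375 and 398 CPM in EPZ libraries and 290, 364 and 335 CPM in NC libraries. ATP5MC1 had 124, 110 and 110 CPM in EPZ and 97.7, 100 and 96.2 CPM in NC libraries. ATP5MC3 had 291, 252 and 249 CPM in EPZ and 256, 241 and 220 CPM in NC libraries. All 3 means were higher in EPZ, the groups of ATP5MC3 overlapped, and only ATP5MC2 passed (log2 fold change 0.31, SE 0.11, edgeR adjusted p = 0.0323). That call was lost without EPZ replicate 1 or 3 or NC replicate 1 or 3 (adjusted p = 0.0739 to 0.138). In TPM, which divides by the length of all annotated exons of a gene, ATP5MC2 stood highest, at 300 ± 11.6 in EPZ and 264 ± 23.3 in NC libraries. ATP5MC1 followed at 129 ± 0.662 TPM in EPZ and 120 ± 3.22 TPM in NC libraries. ATP5MC3 stood at 114 ± 2.42 TPM in EPZ and 113 ± 8.90 TPM in NC libraries (SD, n = 3 each). In NC libraries ATP5MC1 and ATP5MC3 do not differ in TPM beyond their spread. In CPM ATP5MC3 stood above ATP5MC1 in every library. The exon lengths behind TPM were 2615 bases for ATP5MC1 and 6780 for ATP5MC3, but their principal annotated transcripts have 598 and 795 bases. The order of ATP5MC1 and ATP5MC3 thus depends on the length used. In addition, 7 named pseudogene copies of ATP5MC1 and 3 of ATP5MC2 could take part of their reads.

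**Figure D3:**
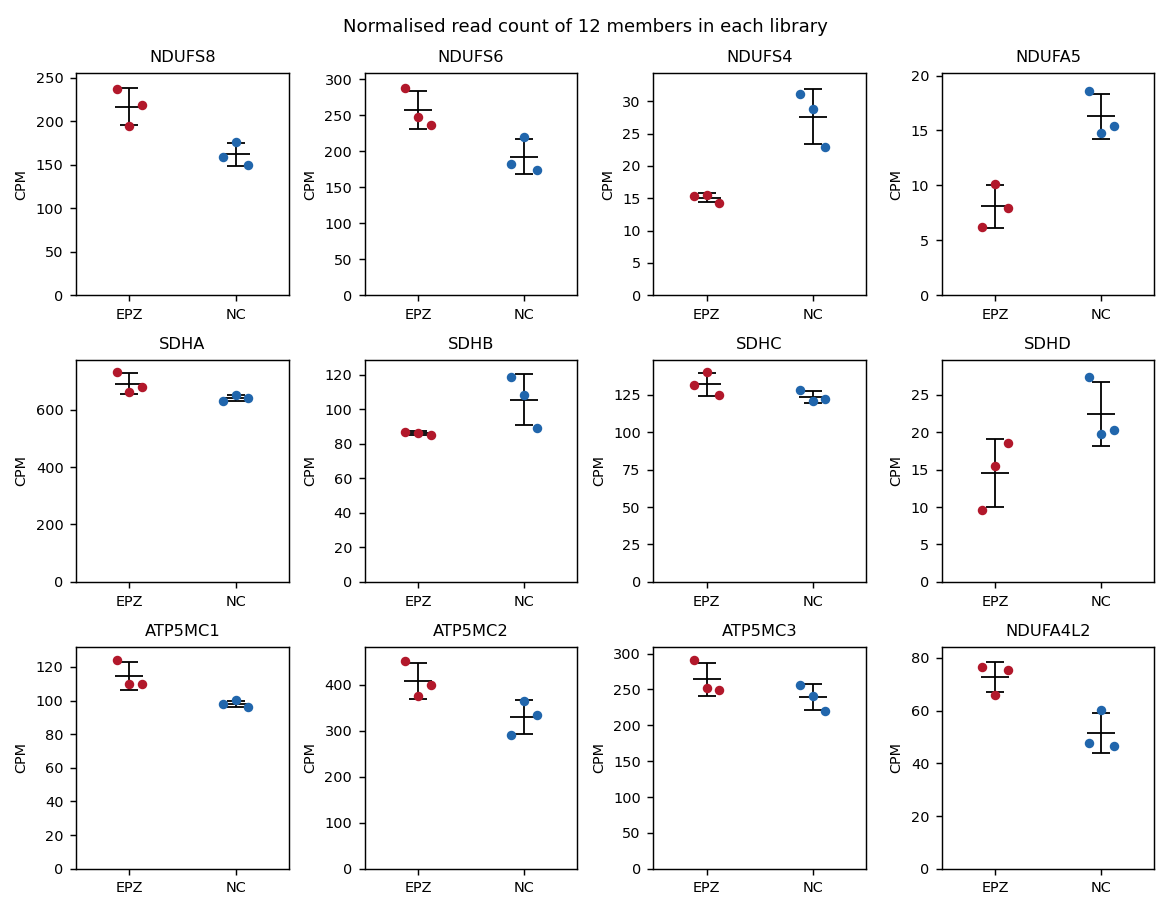
CPM of 12 members in each library, EPZ at the left and NC at the right of each panel; points are libraries and black bars the mean and SD of 3. NDUFS8, NDUFS6 and NDUFA4L2 lie higher in EPZ and NDUFS4, NDUFA5 and SDHD lower, while the SDHC and ATP5MC3 groups overlap.

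The direction of the calls followed the base composition of the transcripts, for the members as for all genes. Of 33 members whose longest transcript was under 45% GC, 1 was higher (3.03%) and 9 were lower (27.3%). Among all 5309 tested genes of that range, 0.678% were higher and 43.1% lower. The median log2 fold change in this range was -0.25 over the members and -0.50 over all tested genes. Of 37 members between 45% and 55% GC, 3 were higher (8.11%) and 2 were lower (5.41%), beside 7.96% and 10.7% of all 5342 genes of that range. Of 21 members over 55% GC, 9 were higher (42.9%), none was lower and all 21 log2 fold changes were positive. Among all 4836 genes of that range, 38.5% were higher and 0.848% lower. Across the 91 members the log2 fold change correlated with GC content at Pearson r = 0.722 (Spearman rho = 0.763), and across all tested genes at r = 0.587. These points share the same 6 libraries, so the values describe them and carry no p. The median centred log2 level of the members over 55% GC was 0.34, 0.09 and 0.09 in EPZ libraries and -0.17, -0.06 and -0.23 in NC libraries. That of the members under 45% GC was -0.06, -0.10 and -0.14 in EPZ and 0.26, 0.15 and -0.02 in NC libraries. Every EPZ library lay above every NC library among the GC-rich members and below every one among the GC-poor. EPZ replicate 1 stood above the other EPZ libraries in the first, and NC replicate 3 lay closest to EPZ in the second. What makes the libraries differ along GC content was not tested.

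The opening coding bases of a pair of called members from each end show the contrast, with every G and C in capitals. NDUFA5 (chromosome 7, 42.2% GC over its coding sequence) and ATP5F1E (chromosome 20, 44.2%) were lower, and NDUFB7 (chromosome 19, 65.7%) and NDUFA4L2 (chromosome 12, 57.2%) were higher. Their longest transcripts had 35.0%, 38.7%, 65.0% and 64.6% GC in that order. Each line gives the first 120 coding bases of the principal GENCODE 29 transcript, which need not be the longest. These stretches had 45.8%, 49.2%, 69.2% and 59.2% GC in the same order, a narrower gap than over the longest transcripts.
NDUFA5: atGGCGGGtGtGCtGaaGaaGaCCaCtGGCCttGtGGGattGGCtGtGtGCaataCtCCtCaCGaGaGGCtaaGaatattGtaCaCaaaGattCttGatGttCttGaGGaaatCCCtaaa
ATP5F1E: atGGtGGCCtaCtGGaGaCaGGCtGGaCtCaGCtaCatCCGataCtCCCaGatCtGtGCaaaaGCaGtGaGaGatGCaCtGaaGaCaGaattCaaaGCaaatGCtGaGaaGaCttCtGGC
NDUFB7: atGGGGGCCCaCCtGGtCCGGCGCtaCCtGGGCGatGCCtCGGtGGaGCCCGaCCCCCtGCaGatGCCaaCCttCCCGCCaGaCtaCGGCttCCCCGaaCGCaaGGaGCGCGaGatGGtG
NDUFA4L2: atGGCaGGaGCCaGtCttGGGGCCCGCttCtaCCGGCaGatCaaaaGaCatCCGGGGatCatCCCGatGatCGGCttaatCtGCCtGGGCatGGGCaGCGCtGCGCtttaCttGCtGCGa

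**Figure D4:**
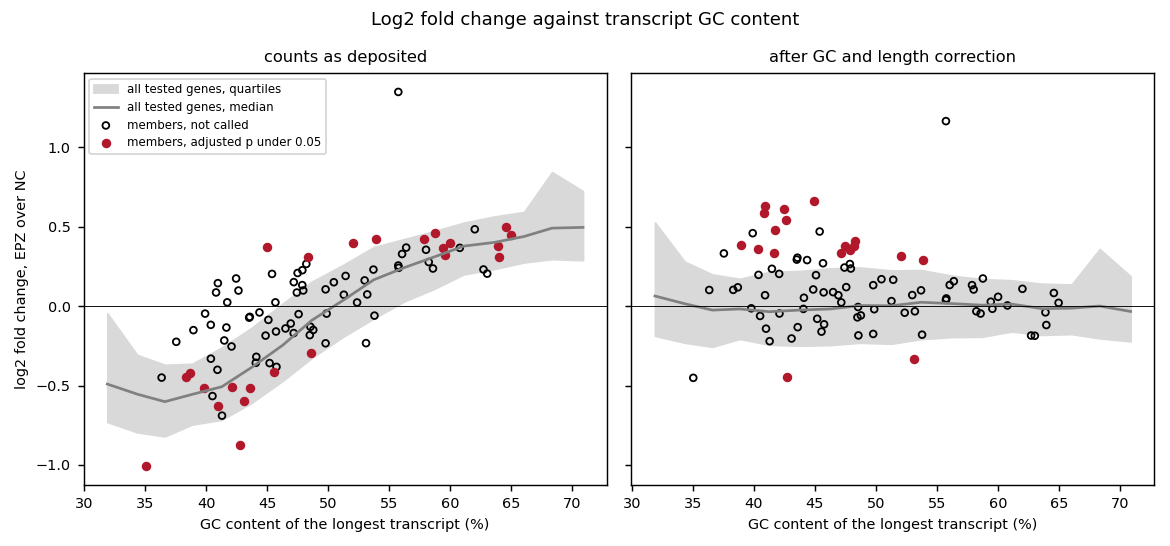
Log2 fold change, EPZ over NC, against GC content of the longest transcript for the 91 tested members (points; red has an adjusted p under 0.05), from the counts as deposited (left) and after GC and length correction (right); the grey line and band are the median and quartiles of all tested genes. At the left the members climb with GC content as the grey line does. Under 45% GC their median (-0.25) lies above that of all tested genes (-0.50). At the right the called members mostly gather below 50% GC.

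When each library was corrected for the GC content and length of transcripts with a smooth offset, 16 members were higher and 2 lower, 17.6% and 2.2% of the tested members, beside 5.40% and 5.57% of all genes. The members' median was then 0.10, that of all genes -0.00, and the correlation with GC content was r = -0.185. Of the 13 higher members before correction, 4 remained called, NDUFB2, NDUFS6 and ATP5MC2 among them, and of the 11 lower ones NDUFS4 remained. The corrected calls lay in GC-poor or middling transcripts, with 9 of the 16 higher ones under 45% GC. The other 12 higher ones, not called before, were NDUFB4, NDUFB6, NDUFC1 and NDUFV3 of complex I, UQCR10 of complex III, COX6A1, COX7A2, COX7C and NDUFA4 of complex IV, and the ring genes ATP5MC1 and ATP5MC3, and the complex II anchor SDHC. COX7A2 had a corrected log2 fold change of 0.61 (edgeR adjusted p = 0.00024), SDHC of 0.54 (adjusted p = 0.0010) and ATP5MC3 of 0.63 (adjusted p = 0.00360), and these 3 calls held without each library in turn. On the lower side stood NDUFS4 at -0.44 (adjusted p = 0.0249 in edgeR) and ATP5PF, the F6 subunit of the peripheral stalk, at -0.33 (adjusted p = 0.0431), the last lost on leaving out any one library except NC replicate 1 (adjusted p = 0.0653 to 0.201).

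The corrected calls depended on which transcript stood for the gene. With the principal transcript of each gene in place of the longest, a choice made after the data were seen, 15 members were higher and 1 lower, beside 4.89% and 5.90% of all genes, and 10 of the higher calls were shared by the pair of corrections. The corrected value of NDUFB2 went with a longest transcript of 44.96% GC (0.66, edgeR adjusted p = 0.00082), and with its principal transcript of 55.8% GC it was 0.19 (adjusted p = 0.254). The ring genes ATP5MC1 and ATP5MC2, COX6A1, NDUFC1 and NDUFA4 also lost their corrected calls in this way, and ATP5PF changed sign, from -0.33 to 0.25. NDUFS6, higher, and NDUFS4, lower, were called from the deposited counts and under both corrections. With the longest transcripts, NDUFS6 had a corrected log2 fold change of 0.29 (edgeR adjusted p = 0.0190). Its corrected call fell short without EPZ replicate 1 (adjusted p = 0.0974) and without NC replicate 3 (adjusted p = 0.112), and NDUFS4 did so without EPZ replicate 2 or 3 or NC replicate 1 or 2 (adjusted p = 0.0702 to 0.102). Of the 18 corrected calls, 6 held without EPZ replicate 1, 10 each without EPZ replicate 3 and NC replicate 3, 12 each without EPZ replicate 2 and NC replicate 1, and 16 without NC replicate 2.

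Together the 99 members took 1.20%, 1.17% and 1.14% of reads in EPZ libraries and 1.21%, 1.18% and 1.11% in NC libraries, which overlapped. The summed level of complex I core subunits was 630, 601 and 622 TPM in EPZ and 564, 543 and 527 TPM in NC libraries, with every EPZ library above every NC library, as also in summed CPM and in the share of reads. Complex V summed to 3388, 3372 and 3321 TPM in EPZ and 3694, 3511 and 3466 TPM in NC libraries, every EPZ library below every NC library. Its summed CPM went the other way in the mean and overlapped, at 3598, 3242 and 3206 CPM in EPZ and 3375, 3395 and 3099 CPM in NC libraries. Complex II summed to 369, 394 and 400 TPM in EPZ and 464, 418 and 426 TPM in NC libraries, again with EPZ below, but to 959, 902 and 907 CPM in EPZ and 905, 900.0 and 873 CPM in NC libraries, with the EPZ mean above. The direction for complexes II and V thus depended on the scale. The summed TPM of complexes III and IV overlapped between groups. These sums are not corrected for GC content and were given no test.

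**Figure D5:**
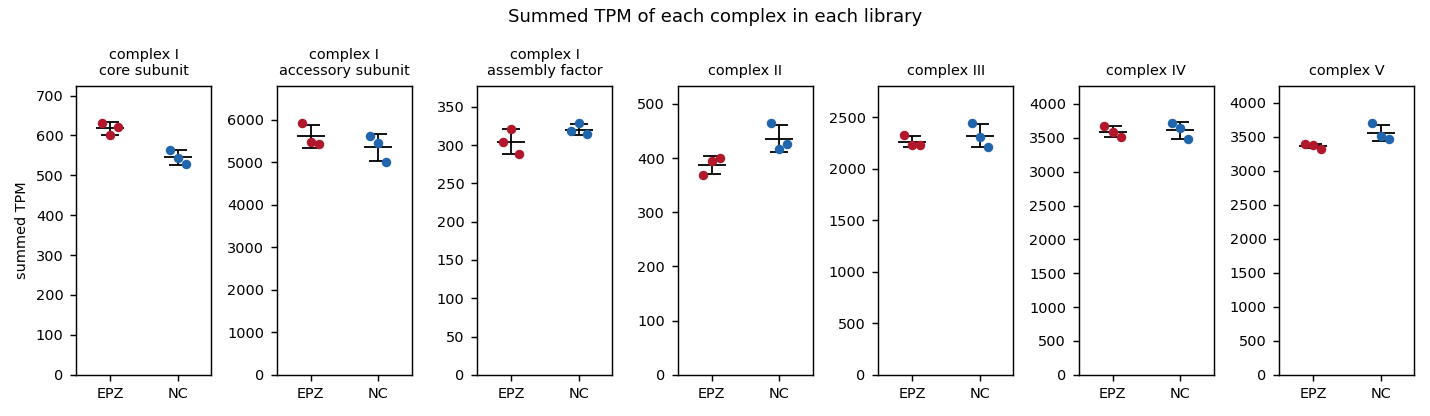
Summed TPM of the members of each complex or role in each library, EPZ at the left and NC at the right of each panel; points are libraries, bars the mean and SD of 3, and every axis starts at 0 with its own scale. The core subunits of complex I sum to 601 to 630 TPM in EPZ and 527 to 564 TPM in NC libraries, and the members of complex V to 3321 to 3388 TPM in EPZ and 3466 to 3694 TPM in NC libraries, an order that summed CPM does not keep (3206 to 3598 CPM in EPZ and 3099 to 3395 CPM in NC).

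Levels of the members differed widely within complexes whose subunits are present in fixed proportions. Among the complex I core subunits, NDUFV2, an iron-sulfur subunit, had 0.451 to 1.47 CPM in EPZ and 1.31 to 1.40 CPM in NC libraries, while NDUFV1 had at least 190 CPM in every library. NDUFV2 shares 84.7% of its coding bases with another annotated gene on the same strand, and the accessory subunit NDUFA7, at 0.428 to 0.515 CPM in EPZ and 0.0251 to 0.348 CPM in NC libraries, shares 78.3%. In all, 17 members share 30% or more of their coding bases in this way, and their median level over the libraries was 12.5 TPM, beside 83.5 TPM for the other 82. NDUFA13, NDUFA9, NDUFB8, UQCR11, ATP5MG and ATP5PO are among them, although COX8A and COX6A1 are too and stayed above 100 TPM. No source used here says how the authors' counting treated reads that fall in more than 1 gene, so levels of these 17 are uncertain. The strand setting is not known either. Annotated genes on the opposite strand share 45.2% of the coding bases of NDUFB2, 48.5% of NDUFS7 and 44% of ATP5ME. Their levels are uncertain too if reads were counted without regard to strand. Another 164 annotated pseudogenes named after members belong to 47 of the 99, with 12 for NDUFA5 and 7 each for ATP5PB and COX6B1, and reads shared with such copies may add to the uncertainty.

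Promoters of the members were read for the short sequences bound by regulators of respiratory genes. Of the 99 members, 78 matched a RefSeq promoter (GRCh38.p14, 250 bases before to 50 after the start). The NRF1 motif, which reads as the capitals in the sequences at the end of the paragraph with any base in the fifth place, was searched on both strands, like the others, and was in 18 of these 78 (23.1%), beside 8.58% of all 15843 protein-coding promoters of the same length. The GABPA motif CCGGAAGT was in 10 (12.8%, beside 6.19%) and the YY1 motif AANATGGCG in 16 (20.5%, beside 4.81%), and no matches of different motifs overlapped. The NRF1 motif lay in the promoters of 1 of 10 higher, 2 of 9 lower and 14 of 55 uncalled members with a promoter, so members with and without the motif were found among those called each way. In the same order the GABPA motif lay in 0, 2 and 8 and the YY1 motif in 3, 3 and 10. The 3 called members with a match upstream of the start are shown with 60 bases around it, the motif in capitals; a match is a description of the letters, not evidence of binding.
UQCRC1 (higher, chr3:48609659-48609718, minus strand): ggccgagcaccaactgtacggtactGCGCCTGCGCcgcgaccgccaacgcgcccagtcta
SDHD (lower, chr11:112086738-112086797, plus strand): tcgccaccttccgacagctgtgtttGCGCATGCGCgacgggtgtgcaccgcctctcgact
ATP5F1C (lower, chr10:7788117-7788176, plus strand): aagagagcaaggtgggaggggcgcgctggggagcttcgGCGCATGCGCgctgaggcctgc

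Transcripts of regulators of respiratory genes were read alongside, NRF1 and YY1 among them. NRF1, the nuclear respiratory factor, had 23.8, 22.7 and 22.02 CPM in EPZ and 24.5, 23.5 and 22.7 CPM in NC libraries, which overlapped (log2 fold change -0.05, edgeR adjusted p = 0.822). YY1 was lower in EPZ, at 85.7, 88.8 and 92.9 CPM, than in NC libraries, at 135, 114 and 131 CPM (log2 fold change -0.51, adjusted p = 0.00109 in edgeR), and remained so after correction (-0.40, adjusted p = 0.00177). PPARGC1A, the coactivator PGC-1alpha that promotes mitochondrial biogenesis, was at 1.71, 1.94 and 2.40 CPM in EPZ and 4.78, 4.52 and 5.49 CPM in NC libraries. Its log2 fold change was -1.29 (SE 0.27, edgeR adjusted p = 0.00137), at a level of few reads. It was -0.80 after correction (adjusted p = 0.0389), and that call was lost on leaving out any 1 library (adjusted p = 0.0564 to 0.128). TFAM, which packages and transcribes mitochondrial DNA, was lower (-0.47, edgeR adjusted p = 0.0399) but not without NC replicate 1 (-0.21, adjusted p = 0.369), and its sign turned after correction (0.09). Of 15 such regulators tested, 1 was higher, the mitochondrial RNA polymerase POLRMT (0.50, edgeR adjusted p = 0.00205, and 0.04 after correction), and 4 were lower. Among all tested genes 15.0% were higher and 18.7% lower.

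Other gene lists also held calls in both directions, except that of the mitochondrial genome. Their counts stand beside 15.0% higher and 18.7% lower among all tested genes. The electron carriers and CYC1, the haem-bearing subunit of complex III, gave 2 higher and 2 lower of 7. CYC1 had 655, 531 and 531 CPM in EPZ and 420, 478 and 419 CPM in NC libraries, whereas cytochrome c itself, CYCS, had 53.1, 63.4 and 59.2 CPM in EPZ and 109, 90.5 and 79.7 CPM in NC libraries. The log2 fold changes of 0.38 for CYC1 (adjusted p = 0.00974) and -0.67 for CYCS (adjusted p = 0.00048) in edgeR's test became -0.05 and -0.21 after correction, neither called. The protein genes of the mitochondrial genome gave 4 higher and 0 lower of 13 from the deposited counts. After correction they gave 9 and 0 with the longest transcripts and 5 and 0 with the principal ones. All genes gave 5.40% higher and 5.57% lower with the longest transcripts, and 4.89% and 5.90% with the principal ones. MT-ND1, a core subunit of complex I, had 1019, 784 and 816 CPM in EPZ and 445, 751 and 683 CPM in NC libraries, with NC replicate 1 the lowest. The call (log2 fold change 0.48, edgeR adjusted p = 0.0169) was lost without it (adjusted p = 0.0894) or without EPZ replicate 1 (adjusted p = 0.130). Complex I assembly factors outside the NDUFAF names gave 2 higher and 1 lower of 10, led by ECSIT (0.40, edgeR adjusted p = 0.0156) and TMEM126B (-0.63, adjusted p = 0.00540). After correction these were 0.02 (edgeR adjusted p = 0.931) and -0.05 (adjusted p = 0.858). Assembly factors of complexes II to V gave 5 higher and 7 lower of 35, led by SURF1 of complex IV (0.54, edgeR adjusted p = 0.00070; 0.30 after correction, adjusted p = 0.0166) and CMC2 (-0.76, adjusted p = 0.00040; -0.28 after correction, adjusted p = 0.177). TCA cycle enzymes gave 2 higher and 6 lower of 17, with IDH3G at 0.48 (edgeR adjusted p = 0.00241; 0.12 after correction, adjusted p = 0.363) and SUCLG2 at -0.92 (adjusted p = 0.00023; -0.46 after correction, adjusted p = 0.00971). Import and outer membrane genes gave 4 higher and 5 lower of 24, with the translocase subunits TIMM17B at 0.43 (edgeR adjusted p = 0.00243) and TOMM20 at -0.51 (adjusted p = 0.00081). Neither held after correction, at 0.20 (edgeR adjusted p = 0.0899) and -0.05 (adjusted p = 0.742).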

How the data were processed

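The deposited values are whole read counts per gene in 1 column per library; reads were aligned to GRCh38 with HISAT2 2.2.1, per the submitters' processing notes, and no source used here names the counting tool, its strand setting or its treatment of shared reads. The deposited gene length, in bases, equals the union of GENCODE 29 exons for all 99 members and served for TPM. Counts were tested over all genes with edgeR 4.0.16 in R 4.3.3 (filterByExpr with a minimum count of 10, trimmed mean of M values, robust quasi-likelihood fit, Benjamini-Hochberg adjusted p under 0.05); the standard error is the log2 fold change over the square root of F. The script was tested on simulated counts. The correction fitted natural splines of 5 degrees of freedom in GC content and log length of the longest GENCODE 29 transcript in each library as offsets. Alternatives were other scalings, no filter, DESeq2 1.42.0, leaving out each library, a replicate block, and a fit on protein-coding genes alone; principal transcripts were added after the data were seen. The members and gene lists were chosen with earlier results of these data known. Members are described per complex: up to 4 called in each direction with separated groups, the highest in mean TPM, the SDH genes, the paralogue sets and ATP5IF1. Of each other list, the called gene with the smallest p in each direction is described. Members called only after correction, and those with low levels and shared coding bases, were named after their values were seen. The separate result of 1 counted member is not reported here.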

Additional observations from a re-analysis of the deposited data

How the results depend on the processing

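Scaling by relative log expression or upper quartile, DESeq2, no filter and protein-coding genes alone each kept at least 23 of the 24 called members, SDHB being the 1 lost to either scaling and in DESeq2, and DESeq2 called 20 members higher. Same-numbered libraries did not deviate together (r = -0.11, -0.09 and 0.05 between replicates 1, 2 and 3), so the numbers were not taken as pairs. The replicate block gave 9 members higher and 10 lower, beside 1677 and 2219 of all tested genes. It kept 19 of the 24 calls, losing NDUFB2, NDUFAF3, SDHB, UQCRC1 and ATP5MC2. GC and length correction kept 5 of them, and the cause of the remaining losses was not tested. Members lower were 2 with the correction and 1 each with the correction and block and with principal transcripts. All genes higher were 837, 688 and 757, and lower 863, 685 and 914, under these 3 settings in that order. Leaving out 1 library, with or without the correction, gave 5 to 22 members higher, 0 to 13 lower, 396 to 2780 genes higher, 512 to 3167 lower and a members' median of -0.039 to 0.15.

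Log2 fold changes called from the deposited counts or under the alternative turned sign as follows, for the correction, the correction with block and principal transcripts where each did so: NDUFAF3 -0.12, -0.12 and -0.11, UQCRB 0.10, 0.11 and 0.11, ATP5F1D -0.039, -0.039 and -0.092, ATP5F1E 0.12, 0.12 and 0.12, TFAM 0.090, 0.10 and 0.097, NDUFB6 0.34, 0.34 and 0.36, COX7C 0.38, 0.39 and 0.33. For the correction and the correction with block they were UQCRC1 -0.016 and -0.017, NDUFA4 0.36 and 0.38, CYC1 -0.055 and -0.056. DOT1L turned to -0.30 with the correction and -0.30 with principal transcripts, and COX7A2L to 0.36 with principal transcripts. Over the fits without 1 library, with and without the correction, ranges that crossed 0 were NDUFB5 -0.58 to 0.12, NDUFB7 -0.065 to 0.54, NDUFAF3 -0.16 to 0.43, NDUFS1 -0.57 to 0.028, NDUFV1 -0.034 to 0.43, SDHD -0.84 to 0.050, UQCRB -0.56 to 0.21, UQCRC1 -0.079 to 0.39, COX7A2L -0.15 to 0.37, NDUFA4 -0.17 to 0.55, ATP5F1D -0.069 to 0.46, ATP5F1E -0.53 to 0.26, CYC1 -0.11 to 0.46, DOT1L -0.38 to 0.21, ECSIT -0.043 to 0.50, POLRMT -0.00011 to 0.60, TFAM -0.59 to 0.26, TMEM126B -0.72 to 0.050, NDUFB6 -0.18 to 0.36 and COX7C -0.25 to 0.56. The correction assumes that GC-dependent differences between libraries are not of interest, and with 3 libraries a group members with few reads are measured least precisely.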
